A study of Homo sapiens with 10 samples.

Results

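Plasminogen activators are the serine proteases that cut plasminogen into plasmin, and serpins are the suicide inhibitors that trap them. The 5 genes described here are PLAU (urokinase, uPA), PLAT (tissue plasminogen activator, tPA), PLAUR (the urokinase receptor, uPAR), SERPINB2 (plasminogen activator inhibitor type 2) and SERPINE2 (protease nexin-1). They were listed by name and chosen by role together with their measured expression levels over the 5 groups, which were already known, and were matched by symbol to Ensembl identifiers. They are 5 of the 58395 genes in the count files, and all 5 were among the 16905 genes that held enough counts to be tested. Because the list was made with these levels in view, the values of the 5 genes are given as a description. Their p-values are not printed, and whether they passed the rule used to call genes is not read as evidence.

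RNA was sequenced from HeyA8, an established human ovarian cancer cell line, after transfection of siRNA duplexes at 10 nM. siGGGGGC (siMxy in the sample titles) and siGGCAGU (si34a in the titles) are named after the 6mer seed of their guide strand, and siNT1 (siNT1 S2'OM in the titles) is the non-targeting control duplex, so that control cells were transfected as well. Passenger strands carried a chemical modification that keeps them out of the silencing complex. There were 5 groups of 2 libraries, namely siNT1 and siGGGGGC harvested after 24 h, and siNT1, siGGGGGC and siGGCAGU harvested after 48 h. The comparisons ask which mRNAs differ from the control when a duplex with a given seed is loaded. The authors report that siGGGGGC and siGGCAGU slowed the growth of HeyA8 and lowered its viability, while they call siNT1 nontoxic. The cultures compared therefore also differed in growth and survival, and any part of this in the RNA levels was not tested. Duplicates were separate wells of this 1 line, and their spread therefore covers the transfection, the library and the sequencing but not different cultures or donors.

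As background, urokinase is secreted as an inactive single chain, binds uPAR on the cell surface and there turns plasminogen into plasmin, which digests fibrin and matrix proteins and activates other proteases. Tissue plasminogen activator does the same on fibrin. SERPINB2 and SERPINE2 inhibit urokinase, SERPINE2 inhibits thrombin too, and complexes of urokinase and its inhibitors are taken up through uPAR and the endocytic receptor LRP1. In carcinoma cells uPA and uPAR are widely studied for their part in invasion, and SERPINB2 is known as a gene that inflammatory stimuli induce strongly.

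Sequences are shown first because the duplexes are read through their seeds. In a RefSeq table of 2370 mature miRNAs, 4 carry GGCAGU at bases 2 to 7, with miR-34a-5p among them, and 2 carry GGGGGC. The authors also name miR-34b and miR-34c in the family of miR-34a-5p. The search did not return these. Whether they are missing from that table or do not carry GGCAGU at exactly these bases was not checked, so the list may not be complete. These miRNAs are written 5′ to 3′ with bases 2 to 8 in capitals.
hsa-miR-34a-5p: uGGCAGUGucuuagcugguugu
hsa-miR-449a: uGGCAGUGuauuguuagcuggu
hsa-miR-449b-5p: aGGCAGUGuauuguuagcuggc
hsa-miR-548au-3p: uGGCAGUUacuuuugcaccag
hsa-miR-1237-5p: cGGGGGCGgggccgaagcgcg
hsa-miR-4488: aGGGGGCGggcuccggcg
The first 3 share all 7 bases of the seed with each other, and miR-548au-3p differs from them at base 8.

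The 3′ UTRs of the 5 genes were searched for the reverse complements of both seeds. The word ACTGCC, which pairs with GGCAGU, was found in SERPINB2 and in no other of the 5 genes. It occurred 1 time, from position 324 of the 586 bases of that 3′ UTR, on the plus strand of hg38, and the base after it is not A. SERPINB2 was far higher with siGGCAGU, and any effect of this copy was not tested. The stretch around it is shown with the word in capitals.
SERPINB2, chr18:63903626-63903631: aaattattgctcACTGCCtatttaatgtag
ACTGCC is present in the longest 3′ UTR of 32.1% of 19605 protein-coding genes. The word GCCCCC, which pairs with GGGGGC and is present in 29.6% of them, occurred 0 times in the 3′ UTRs of the 5 genes.

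Promoters of 4 of the 5 genes were in a RefSeq table for GRCh38.p14, which holds 250 bases before and 50 bases after each start. SERPINE2 and PLAU each had 2 starts in it. The motif TGANTCA, an AP-1 type site, was found in the promoters of SERPINB2 and PLAUR, printed here for the 250 bases before the start. TATAAA was found in that of SERPINB2. Motifs were sought on both strands, TGANTCA reads the same on either, and the matches are in capitals.
SERPINB2, chr18:63887455-63887704, plus strand: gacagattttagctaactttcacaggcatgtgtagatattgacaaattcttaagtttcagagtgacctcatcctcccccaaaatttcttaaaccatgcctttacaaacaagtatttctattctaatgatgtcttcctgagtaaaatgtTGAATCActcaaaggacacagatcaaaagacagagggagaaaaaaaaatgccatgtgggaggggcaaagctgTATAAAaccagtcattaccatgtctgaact
PLAUR, chr19:43670170-43670419, minus strand: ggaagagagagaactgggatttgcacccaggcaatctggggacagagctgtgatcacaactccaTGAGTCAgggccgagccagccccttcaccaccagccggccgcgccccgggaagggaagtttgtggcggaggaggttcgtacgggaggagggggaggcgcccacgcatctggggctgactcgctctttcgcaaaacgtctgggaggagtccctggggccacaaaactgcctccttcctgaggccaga
TGANTCA began 102 bases before the start in SERPINB2 and 186 bases before it in PLAUR, and TATAAA began 30 bases before the start of SERPINB2. Of 35116 promoters of this length, 7.71% held TGANTCA and 11.5% held TATAAA. The GC box GGGCGG, held by 45.0% of them, occurred 0 times and 3 times at the starts of PLAU and 1 time and 2 times at those of SERPINE2, and not at those of SERPINB2 and PLAUR. With siGGCAGU SERPINB2 was above siNT1 and PLAUR below it, and any part of these motifs in the levels was not tested.

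The libraries held 19781445 to 42428986 counts, of which RN7SL2 and SNORD3A, 2 small RNA genes, took 19.83% to 31.96%. Chi-square per degree of freedom between duplicates ran from 2.177 to 36.47, highest for siGGCAGU at 48 h, so each pair differed by more than counting noise. It was taken on raw counts against library totals, with RN7SL2 and SNORD3A included. Their share was 31.96% and 24.22% in the siGGCAGU libraries, so the value is not the spread of a typical gene after scaling. Of 7 monocyte and macrophage markers, which were checked because such cells express SERPINB2, 6 held fewer than 10 counts in every library, among them PTPRC, CD14 and CD68, and the summed level of the list was 0.303 to 0.956 CPM. Of 5 endothelial markers TEK was below 10 counts, and the list summed to 0.915 to 2.95 CPM. Of 6 fibroblast markers 5 were below 10 counts. Epithelial keratins and adhesion genes summed to 672 to 822 CPM except with siGGGGGC at 48 h, where the list stood at 245 and 276 CPM. The mesenchymal list, with VIM, summed to 925 to 1920 CPM and was lowest with siGGGGGC at 48 h. The ovarian carcinoma and Müllerian markers were low, at 6.82 to 41.3 CPM for 7 genes, with 3 of the 7 tested and FOLR1 below 10 counts in every library.

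PLAU, on chromosome 10 (hg38, 73909177 to 73917496, plus strand), encodes urokinase. Its normalised counts, which are counts scaled to a common library size, were 3508.4 and 3501.1 with siNT1 at 24 h and 5902.8 and 5059.1 with siGGGGGC at 24 h. At 48 h they were 5833.6 and 5433.6 with siNT1, 1354.9 and 1729.4 with siGGCAGU, and 2800.0 and 2955.4 with siGGGGGC. Both siRNAs at 48 h lay below both siNT1 libraries, whereas siGGGGGC at 24 h lay above its own siNT1 libraries. PLAU was thus 3.64-fold lower with siGGCAGU (log2 fold change -1.86, SE 0.11) and 1.96-fold lower with siGGGGGC at 48 h (-0.97, SE 0.11), and 1.56-fold higher with siGGGGGC at 24 h (0.65, SE 0.11). It was 1.61-fold higher with siNT1 at 48 h than at 24 h, so the control level itself differed between the times. From lowest to highest the groups stood in the order siGGCAGU at 48 h, siGGGGGC at 48 h, siNT1 at 24 h, siGGGGGC at 24 h and siNT1 at 48 h, and the last 2 overlapped. In cells taken as a whole culture, fewer cells that make an RNA and less of the RNA per cell cannot be told apart. PLAU shares 915 exonic bases with C10orf55 on the opposite strand, which held 13 to 78 raw counts, and the strand setting of the counting was not given in the sources used here.

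PLAT, on chromosome 8 (42174718 to 42207709, minus strand), encodes tissue plasminogen activator. Its normalised counts were 131.3 and 153.2 with siNT1 and 144.4 and 135.8 with siGGGGGC at 24 h. They were 202.1 and 182.2 with siNT1, 455.1 and 388.3 with siGGCAGU and 119.6 and 123.2 with siGGGGGC at 48 h. At 24 h the groups overlapped, and at 48 h they were apart, with siGGCAGU above siNT1 and siGGGGGC below it. PLAT was 2.19-fold higher with siGGCAGU (log2 fold change 1.13, SE 0.13) and 1.58-fold lower with siGGGGGC at 48 h (-0.66, SE 0.14). With siGGCAGU the 2 activators thus lay on opposite sides of siNT1, and with siGGGGGC at 48 h both were below it.

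PLAUR, on chromosome 19 (43646095 to 43670547, minus strand), encodes the receptor that holds urokinase at the cell surface. Normalised counts were 4306.7 and 4484.4 with siNT1 and 5289.3 and 5412.3 with siGGGGGC at 24 h. At 48 h the values were 3766.4 and 3834.2 with siNT1, 2582.9 and 2249.3 with siGGCAGU, and 5056.7 and 5641.5 with siGGGGGC. Both libraries with siGGGGGC were above both siNT1 libraries at each time, and both with siGGCAGU were below them. PLAUR was 1.22-fold higher with siGGGGGC at 24 h (log2 fold change 0.28, SE 0.092), 1.41-fold higher at 48 h (0.49, SE 0.091), and 1.57-fold lower with siGGCAGU (-0.66, SE 0.092). Its groups with siGGGGGC at 24 h and at 48 h overlapped and were the highest of the 5. RN7SL368P, a signal recognition particle RNA pseudogene, lies within PLAUR on the same strand, shares 0 exonic bases with it and held 4 to 16 raw counts.

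SERPINB2, on chromosome 18 (63871692 to 63903888, plus strand), encodes an inhibitor of urokinase and of 2-chain tissue plasminogen activator that stays largely inside cells. Its normalised counts were 68.0 and 93.0 with siNT1 and 47.6 and 52.9 with siGGGGGC at 24 h. At 48 h they were 87.5 and 90.5 with siNT1, 4501.5 and 3897.6 with siGGCAGU, and 100.6 and 70.4 with siGGGGGC. The siGGCAGU libraries stood far above the rest, siGGGGGC at 24 h was lowest, and the other 3 groups overlapped, with the siGGGGGC libraries at 48 h on either side of their siNT1 libraries. SERPINB2 was 47.0-fold higher with siGGCAGU than with siNT1 (log2 fold change 5.55, SE 0.15), which placed it 16th from the top of the 16905 genes by log2 fold change. Its level passed that of 95.5% of the genes tested with siGGCAGU and of 39.9% with siNT1 at 48 h. With siGGGGGC it was 1.59-fold lower at 24 h (-0.67, SE 0.23) and 1.05-fold lower at 48 h (-0.07, SE 0.18).

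SERPINE2, on chromosome 2 (223975045 to 224039318, minus strand), encodes protease nexin-1, a secreted inhibitor of thrombin, urokinase and plasmin. Its normalised counts at 24 h were 136.0 and 157.1 with siNT1 and 154.5 and 134.4 with siGGGGGC. At 48 h the counts were 198.3 and 190.2 with siNT1, 1152.2 and 1243.6 with siGGCAGU, and 415.8 and 414.2 with siGGGGGC. The groups overlapped at 24 h, and at 48 h both siRNAs were above siNT1, with siGGGGGC between siNT1 and siGGCAGU. SERPINE2 was 6.18-fold higher with siGGCAGU (log2 fold change 2.63, SE 0.11) and 2.14-fold higher with siGGGGGC at 48 h (1.10, SE 0.11). With all genes kept in the fit, the latter value was 0.97, short of the fold of 1 that the call rule used here asks for.

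**Figure D1:**
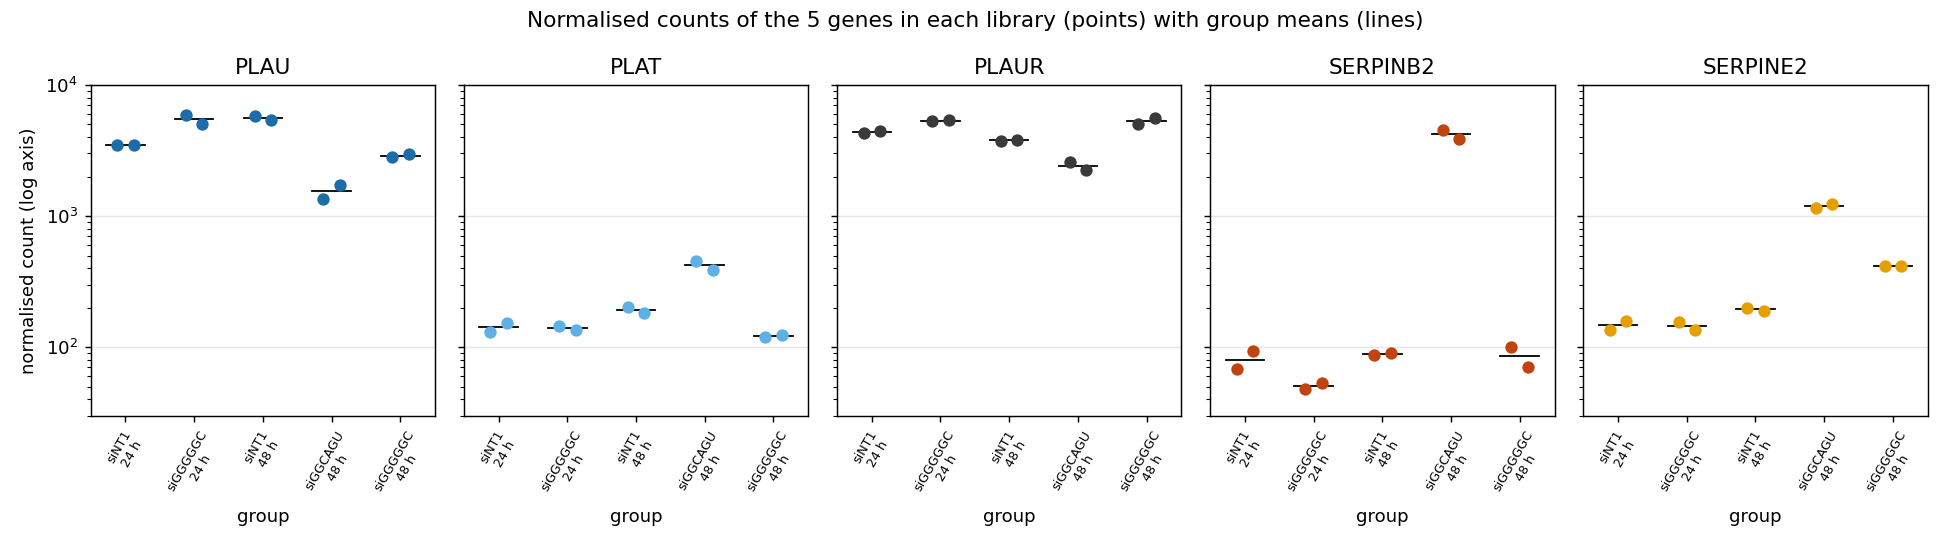
Normalised counts (log axis) of PLAU, PLAT, PLAUR, SERPINB2 and SERPINE2 in each of the 10 libraries, with points for libraries and lines for the means of the 5 groups. The SERPINB2 libraries with siGGCAGU, at 4501.5 and 3897.6, stand far above the 8 others of that gene, at 47.6 to 100.6.

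Set side by side at 48 h, siGGCAGU gave higher SERPINB2, SERPINE2 and PLAT and lower PLAU and PLAUR than siNT1. The libraries of 0 of the 5 genes overlapped between these groups, where over all genes tested 72.6% had both libraries on 1 side. Of the 5 genes, 3 were past the call rule (adjusted p below 0.05 and a log2 fold change beyond 1) on the higher side and 1 on the lower side, and PLAUR was not. The rule called 20.3% of all genes tested in this comparison, 10.7% upward and 9.62% downward. Here and in every other comparison, nothing is read from which of the 5 genes passed the rule. They were picked with their levels known.

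With siGGGGGC at 48 h, SERPINE2 and PLAUR were higher and PLAU and PLAT lower than with siNT1, and SERPINB2 overlapped. SERPINE2 alone of the 5 was past the call rule, in a comparison where it called 21.5% of all genes, 10.5% upward and 11% downward. Which of the 5 passed the fold limit changed with the setting, since with no filter on low counts SERPINE2 was at 0.97 and PLAU at -1.09, and PLAU ranged from -1.03 to -0.93 when a library was left out, beyond 1 without siNT1 replicate 2 or siGGGGGC replicate 2. The libraries of 4 of the 5 genes lay on 1 side of siNT1, as did those of 77.4% of all genes. At 24 h PLAU and PLAUR were higher, SERPINB2 was lower and the other 2 overlapped, and 0 of the 5 genes were past the rule, which called 3.72% of all genes. Libraries on 1 side were seen for 3 of the 5 genes and for 62.7% of all genes. Epithelial marker levels were lowest in the siGGGGGC libraries at 48 h, as given above, and their part in these values was not tested. Between siNT1 at 48 h and at 24 h, 0 of the 5 genes were past the rule, against 1.53% of all genes, with SERPINE2, PLAU and PLAT higher at 48 h and PLAUR lower, at log2 fold changes of 0.41, 0.68, 0.43 and -0.21. The libraries of 4 of the 5 lay on 1 side there, against 61.6% of all genes. The effect of siGGGGGC at 48 h less that at 24 h was -1.61 (SE 0.16) for PLAU, 1.12 (SE 0.18) for SERPINE2, -0.64 (SE 0.21) for PLAT, 0.60 (SE 0.29) for SERPINB2 and 0.21 (SE 0.13) for PLAUR on the log2 scale, in a difference where the rule called 11.2% of all genes.

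**Figure D2:**
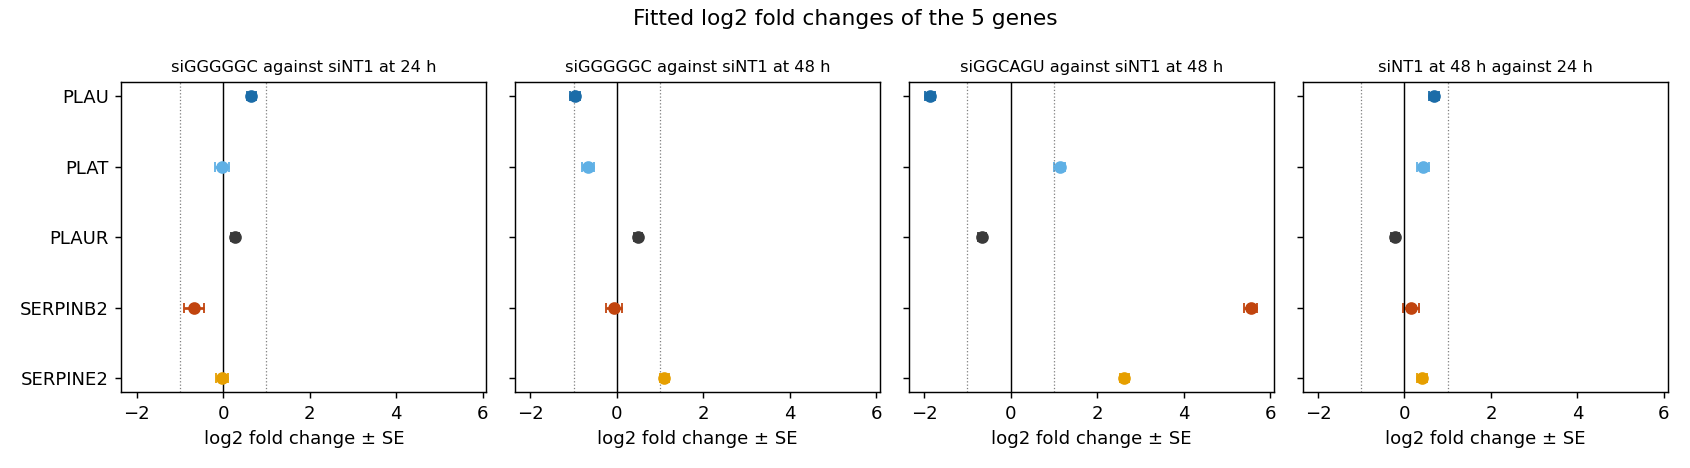
Fitted log2 fold change (horizontal axis, ± SE) of each of the 5 genes in 4 comparisons, with dotted lines at a log2 fold change of 1 in either direction. SERPINB2 lies at 5.55 with siGGCAGU, while the values with siGGGGGC lie between -0.97 and 1.10.

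The duplexes differ in their seed and were given at the same dose and time, so they were set directly against each other at 48 h. SERPINB2 was 49.2-fold lower with siGGGGGC than with siGGCAGU (log2 fold change -5.62, SE 0.15), PLAT 3.45-fold lower (-1.79, SE 0.14) and SERPINE2 2.89-fold lower (-1.53, SE 0.10). PLAUR was 2.22-fold higher with siGGGGGC (1.15, SE 0.093) and PLAU 1.86-fold higher (0.90, SE 0.11). In each of the 5 genes both libraries of either siRNA lay on 1 side of the other, as did 75.7% of all genes, and 1 gene was past the rule upward and 3 downward, where the rule called 23% of all genes, 10.1% upward and 12.8% downward.

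To compare the genes with each other, counts scaled to CPM were divided by the length of the canonical transcript in kb. With siNT1 at 48 h the order was PLAUR at 107 ± 1.35 CPM per kb (SD, n = 2), PLAU at 92.5 ± 4.65, SERPINE2 at 3.36 ± 0.0988, PLAT at 2.42 ± 0.178 and SERPINB2 at 1.80 ± 0.0427. With siGGCAGU SERPINB2 came first at 84.8 ± 8.62 CPM per kb, before PLAUR at 68.0 ± 6.64, PLAU at 25.3 ± 4.35, SERPINE2 at 20.7 ± 1.12 and PLAT at 5.30 ± 0.594. SERPINB2 thus went from the lowest level of the 5 to the highest. Under siGGGGGC at 48 h the receptor and urokinase stayed on top, PLAUR at 150 ± 11.6 and PLAU at 47.3 ± 1.81 CPM per kb, followed by SERPINE2 at 7.18 ± 0.0195.

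The ratio of SERPINB2 to PLAU per length was 0.0184 and 0.0205 in the siNT1 libraries at 48 h, 4.08 and 2.77 with siGGCAGU, and 0.0442 and 0.0293 with siGGGGGC. The inhibitor RNA thus exceeded the urokinase RNA in the siGGCAGU libraries and in none of the other 8. The ratio of PLAU to its receptor PLAUR was 0.904 and 0.827 with siNT1 at 48 h, 0.306 and 0.449 with siGGCAGU, and 0.323 and 0.306 with siGGGGGC, so at 48 h it was lower with either siRNA. At 24 h it was higher with siGGGGGC, at 0.652 and 0.546, than with siNT1, at 0.476 and 0.456. PLAU outweighed PLAT 37.7 and 39.0 times with siNT1 at 48 h and 3.89 and 5.82 times with siGGCAGU. These ratios are of RNA levels, and protein was not measured in these libraries.

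**Figure D3:**
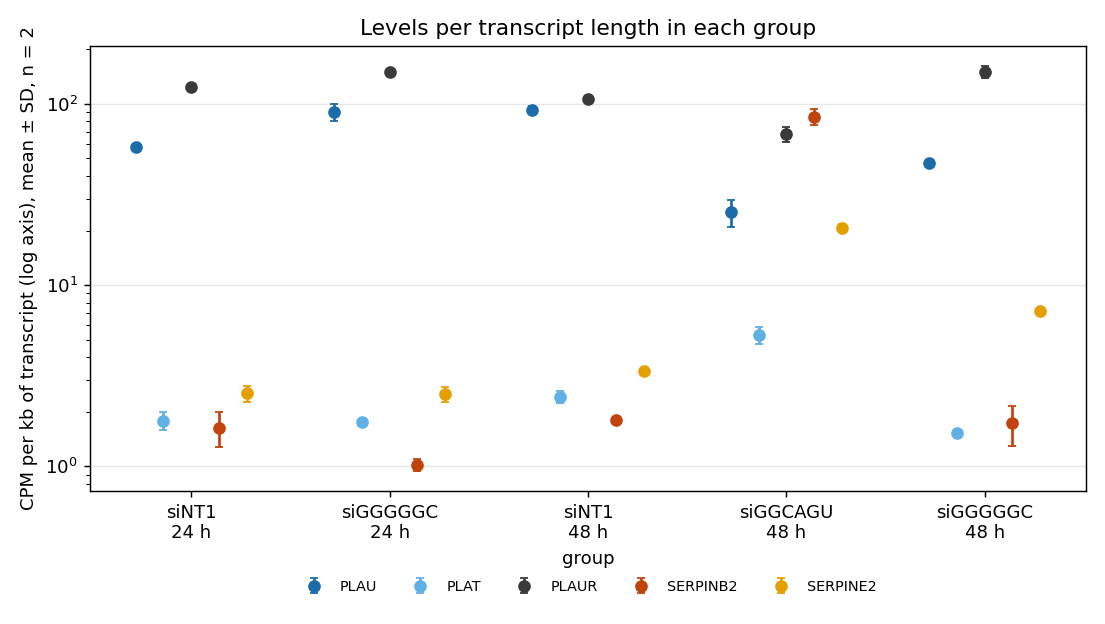
Level of each of the 5 genes in CPM per kb of transcript (log axis, mean ± SD of 2 libraries) in the 5 groups. SERPINB2 lies at 1.02 to 1.80 in 4 groups and at 84.8 with siGGCAGU, above PLAUR at 68.0.

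For each gene the closest patterns over the 5 groups were sought among 9978 genes of at least 100 normalised counts on average, by the root mean square difference of the centred group means of log2 CPM. For SERPINB2 these included IL1B, the cytokine interleukin-1 beta, at 0.599, and CCL20, a chemokine, at 0.625. Mean normalised counts with siNT1 at 48 h and with siGGCAGU were 146.3 and 4732 for IL1B and 14.42 and 811.3 for CCL20. The siGGGGGC means at 48 h were 301.8 and 49.34, so that these genes, unlike SERPINB2, lay above their siNT1 means there. The difference is in log2 units, and a smaller value is a closer pattern. CCL20 passed the limit of 100 counts only through siGGCAGU, as its means in the other groups were 10.04 to 49.34.

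SERPINE2 lay closest to UBE2L6, an enzyme that conjugates ISG15, at 0.119, ANKRD42 at 0.157 and SAMD9L, an interferon-inducible gene, at 0.193. PLAU was closest to TRIM14 at 0.104, CIT, the citron kinase of cytokinesis, at 0.134, and INCENP, a subunit of the chromosomal passenger complex, at 0.137. PLAT was nearest to NRG1, a ligand of ERBB receptors, at 0.0577, FADS3 at 0.0834 and SP2-DT at 0.0852. For PLAUR the closest named gene was the zinc finger gene ZNF273 at 0.0413, beside 2 genes without a symbol at 0.0382 and 0.0419. Among the 5 genes themselves the closest pair was PLAU with PLAUR at 0.515, followed by SERPINE2 with PLAT at 0.787, and the farthest was SERPINB2 with PLAU at 2.95.

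**Figure D4:**
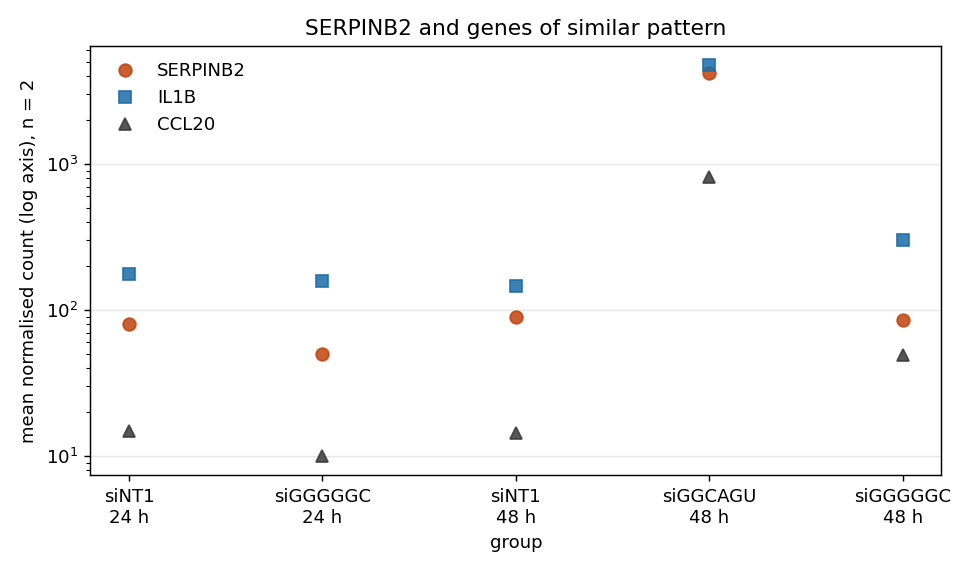
Mean normalised counts (log axis, n = 2) of SERPINB2, IL1B and CCL20 in the 5 groups. All 3 genes are highest with siGGCAGU, at 811.3 to 4732, and IL1B and CCL20 also lie above their siNT1 means with siGGGGGC at 48 h.

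SERPINB2 lies in a row of clade B serpin genes on chromosome 18, and its neighbours were not higher with siGGCAGU to a like extent. SERPINB10, which starts at 63907958 next to it, held at most 8 raw counts in any library. SERPINB7 and SERPINB8, on either side of this pair, had log2 fold changes with siGGCAGU of -0.56 (SE 0.11) and 0.14 (SE 0.19), and SERPINB5, further along, of -0.41 (SE 0.22), none past the call rule. SERPINB12, SERPINB13, SERPINB4, SERPINB11 and SERPINB3 held at most 1 raw count. In the whole list of 12 other clade B serpins, 6 were tested, and with siGGCAGU 2 of them were called, both higher. They were SERPINB1, an inhibitor of neutrophil proteases, from 257.1 ± 13.1 to 1510 ± 84.1 normalised counts (log2 fold change 2.55, SE 0.10, edgeR adjusted p = 4.31e-11), and SERPINB9, the inhibitor of granzyme B (1.94, SE 0.53, edgeR adjusted p = 0.00619). SERPINB9 held at most 14 raw counts and its call was lost by DESeq2 (adjusted p = 0.151).

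Around these 5 genes, 109 others were listed in 8 groups by role, and 59 of them held enough counts to be tested. The lists were made with earlier results of these data known. Shares of called genes and adjusted p-values are therefore a description, and no excess over all genes is read from them in any comparison. With siGGCAGU 12 of the 59 rose and 3 fell, or 25.4%, near the 20.3% of all genes. In the siGGGGGC libraries at 48 h 8 rose and 15 fell, or 39.0%, against 21.5%, and at 24 h 2 rose and 3 fell, or 8.47%, against 3.72%. The median log2 fold change of the 59 was 0.23 with siGGCAGU, -0.19 with siGGGGGC at 48 h and -0.04 at 24 h, where the medians of all genes were 0.02, -0.01 and 0.00. Adjusted p-values of these genes are from edgeR over all genes tested.

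Plasminogen itself, the substrate of the activators, was barely counted, with PLG at no more than 3 raw counts in a library and its inhibitor SERPINF2 (alpha-2-antiplasmin) at no more than 2. Of 6 tested proteins that bind plasminogen at the cell surface, 1 was called with siGGCAGU. It was PLGRKT, the plasminogen receptor with a C-terminal lysine, which rose from 353.0 ± 28.2 to 877.5 ± 126 (log2 fold change 1.30, edgeR adjusted p = 1.13e-07). Under siGGGGGC PLGRKT had log2 fold changes of 0.07 at 24 h (edgeR adjusted p = 0.762) and 0.24 at 48 h (edgeR adjusted p = 0.0898), and at 48 h KRT8, a keratin that also binds plasminogen, fell by 1.47 on the log2 scale. ANXA2, the annexin that gathers plasminogen and tPA, had a log2 fold change of -1.05 and PLGRKT one of -1.06 between siGGGGGC and siGGCAGU, and both calls were lost without siGGCAGU replicate 1, at -0.94 and -0.92. Of 3 tested genes in the list of further fibrinolysis inhibitors 1 was called with siGGGGGC at 48 h. It was SERPINH1, a collagen chaperone without inhibitor function, which fell by 1.58 on the log2 scale, and with siGGCAGU 2 of the 3 had an adjusted p below 0.05 within the fold limit.

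Among 8 tested proteases and receptors that activate or clear urokinase, 3 were called with siGGCAGU, all of them higher. LRP1, the receptor that takes up complexes of urokinase with its inhibitors, rose from 140.1 ± 53.9 to 453.9 ± 20.2 normalised counts (log2 fold change 1.71, edgeR adjusted p = 2.22e-06). CTSL and CTSB, the cathepsins, of which cathepsin B can activate pro-urokinase, rose by log2 fold changes of 1.24 and 1.08. The call of CTSB was lost without siGGCAGU replicate 1, where its value was 0.81. In the siGGGGGC libraries at 48 h LRPAP1, the chaperone of LRP1, and MRC2, a collagen receptor that associates with uPAR, rose by 1.21 and 1.03, while VLDLR, a further clearance receptor, was 1.22 higher on the log2 scale than with siGGCAGU. LRP1 had a log2 fold change of 0.27 at 24 h (edgeR adjusted p = 0.513). At 48 h it had a log2 fold change of -0.33 (edgeR adjusted p = 0.214), which became 0.09 without siNT1 replicate 1. MRC2 rose at 24 h too, by 1.25, and at 48 h its call was lost without siNT1 replicate 2 or siGGGGGC replicate 2, at values of 0.89 and 0.90.

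Of 10 tested partners of uPAR at the membrane, 2 were called with siGGCAGU, both lower. They were CAV1, the coat protein of caveolae, from 9452 ± 576 to 1898 ± 120 (log2 fold change -2.32, edgeR adjusted p = 4.85e-11), and ITGA6, the laminin receptor subunit, from 31520 ± 1110 to 7492 ± 180 (-2.07, edgeR adjusted p = 1.08e-10). A total of 3 fell with siGGGGGC at 48 h, namely ITGA6, ITGA3 and ITGA5 at log2 fold changes of -2.14, -1.36 and -1.17. Another 3 rose, of which ITGAV, the vitronectin receptor subunit, had a log2 fold change of 1.05 (0.93, and no longer called, with no filter on low counts) and PDGFRB one of 3.59 from 3.857 ± 2.21 to 45.24 ± 16.6 counts. The last was VTN, the ligand vitronectin, at no more than 12 raw counts (1.81, edgeR adjusted p = 0.0211, and DESeq2 adjusted p = 0.176). ITGA6 fell with either siRNA, and each of these comparisons used the same siNT1 libraries.

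In the matrix metalloproteinases and their inhibitors, 11 of 21 were tested. With siGGCAGU TIMP2 rose by a log2 fold change of 1.22 and MMP19, at no more than 36 raw counts, by 1.11, the latter not called by DESeq2 (adjusted p = 0.258). MMP1, the interstitial collagenase, stood at 52.92 ± 10.2 with siNT1 and 46.14 ± 3.18 with siGGCAGU (log2 fold change -0.22, edgeR adjusted p = 0.455). The genes called with siGGGGGC at 48 h were MMP1, MMP14 and TIMP2, which fell, at -1.72, -1.45 and -1.32. At 24 h MMP1 fell, at -1.43, a call that was lost without siNT1 replicate 1 or siGGGGGC replicate 2, at -1.25 for either. MMP14, the membrane protease that activates MMP2, went from 4595 ± 298 to 1686 ± 61.8 at 48 h (edgeR adjusted p = 3.25e-09). TIMP2 differed between the siNT1 libraries at 48 h (441.0 ± 178), and its calls were lost without replicate 1 for siGGGGGC, at -0.86, and without replicate 2 for siGGCAGU, at 0.84.

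The coagulation list held genes whose products start or restrain thrombin formation, and 10 of its 15 genes were tested. The 3 genes called with siGGCAGU rose. TFPI2, a Kunitz inhibitor of plasmin and other proteases, rose from 2366 ± 43.1 to 10640 ± 106 (log2 fold change 2.17, edgeR adjusted p = 4.31e-11), and F3, tissue factor, from 3361 ± 96.7 to 8375 ± 151 (1.32, edgeR adjusted p = 2.79e-09). The third was F2RL1, a protease-activated receptor at no more than 17 raw counts (1.69, edgeR adjusted p = 0.028, and DESeq2 adjusted p = 0.206). With siGGGGGC F3 fell instead, from 4866 ± 9.01 to 2377 ± 35.9 at 24 h (-1.03, edgeR adjusted p = 6.92e-07) and from 3361 ± 96.7 to 1291 ± 15.8 at 48 h (-1.38, edgeR adjusted p = 2.84e-09). THBD, the thrombin receptor thrombomodulin, fell with siGGGGGC at 24 h and 48 h, by 1.39 and 1.42 on the log2 scale, while with siGGCAGU its log2 fold change was 0.38 (edgeR adjusted p = 0.192). The call at 48 h was lost without siGGGGGC replicate 2, at -0.89. F2R, the thrombin receptor PAR1, fell by 1.06 at 48 h, and its call was lost without siGGGGGC replicate 2, at -0.98. F2RL2, PAR3, rose from 141.1 ± 1.33 to 1077 ± 1.12 with siGGGGGC at 48 h (2.93, edgeR adjusted p = 2.45e-10), and F2RL1 rose by 2.75.

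Of 5 tested genes of the LY6/uPAR domain family, to which PLAUR belongs by its fold, CD177 rose and LY6E fell with siGGCAGU, and LY6K rose and LY6E and CD177 fell with siGGGGGC at 48 h. LY6E stood at 551.5 ± 25.3 with siNT1, 251.0 ± 35.2 with siGGCAGU and 163.8 ± 7.12 with siGGGGGC. CD177 held at most 15 raw counts and was at 0 in the siGGGGGC libraries at 48 h, and DESeq2 did not call it in either comparison (adjusted p = 0.176 and 0.121). LY6K rose with siGGGGGC at 24 h (1.36, edgeR adjusted p = 6.6e-05) and at 48 h (1.08, edgeR adjusted p = 4.5e-05), where its call was lost without siNT1 replicate 2, at 0.81. Of the clade B serpins, SERPINB7 and SERPINB5 were called with siGGGGGC at 48 h and fell, at -1.75 and -1.57.

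**Figure D5:**
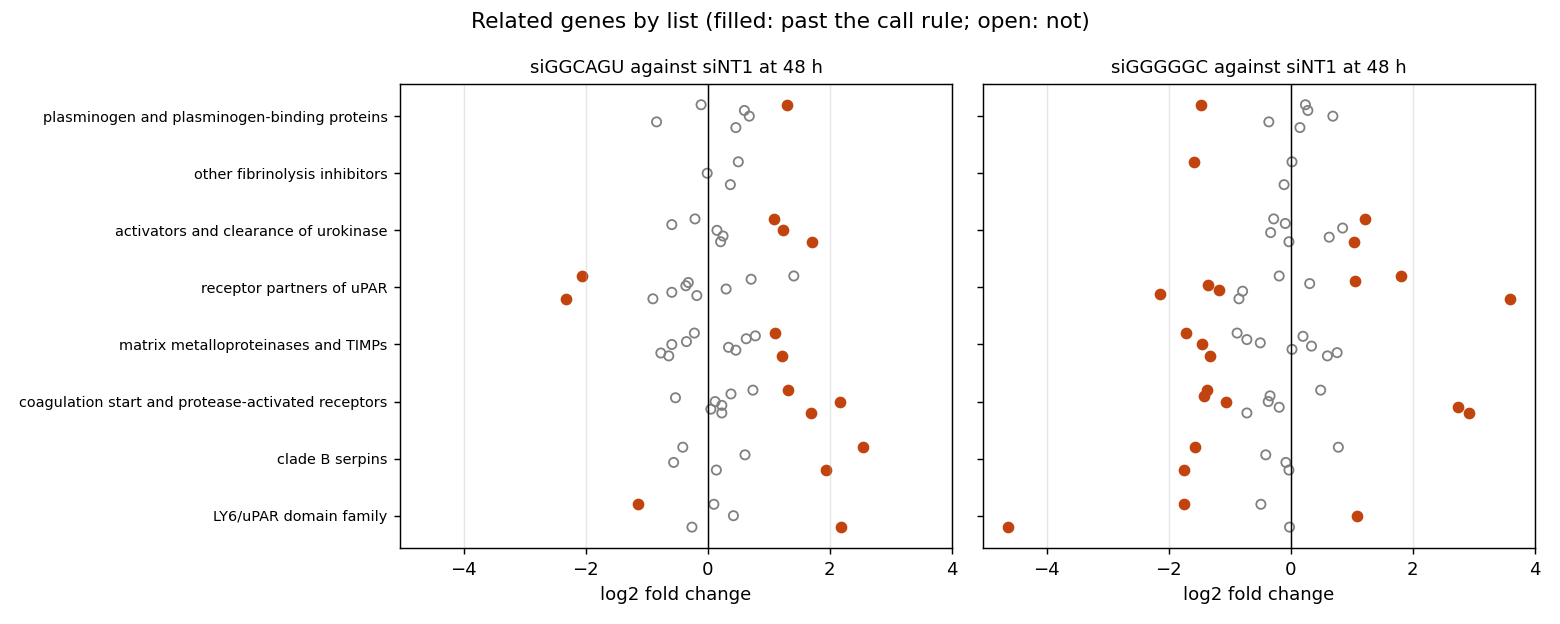
Log2 fold change (horizontal axis) of the tested genes in the 8 related lists, with siGGCAGU on the left and siGGGGGC on the right, both against siNT1 at 48 h, filled where past the call rule and open where not. With siGGCAGU 12 genes are called higher and 3 lower, and with siGGGGGC 8 higher and 15 lower.

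Between the siRNAs at 48 h, 8 of the 59 were higher and 23 lower with siGGGGGC than with siGGCAGU, or 52.5% against 23% of all genes. Lower with siGGGGGC were F3 at -2.70, TIMP2 at -2.54, TFPI2 at -2.51, MMP14 at -2.08 and LRP1 at -2.05 (edgeR adjusted p from 4.64e-12 to 6.82e-07). Of the 6 other clade B serpins tested 5 were called lower with siGGGGGC, where the rule called 12.8% of all genes lower. SERPINB1 was at -1.77, SERPINB7 at -1.19, SERPINB5 at -1.16, SERPINB6 at -1.02 and SERPINB9 at -1.97. SERPINB9 held no more than 14 raw counts and was not called by DESeq2 (adjusted p = 0.171). SERPINB6 lost its call without siGGGGGC replicate 2, at -0.98, and SERPINB5 without siGGCAGU replicate 2, at -0.94. Higher with siGGGGGC were PDGFRB at 4.50, F2RL2 at 2.70 and CAV1 at 1.47. PDGFRB held at most 55 raw counts and stood at 1.77 ± 0.653 normalised counts with siGGCAGU. Among the matrix protease genes MMP3 and MMP1 were lower with siGGGGGC, at -1.65 and -1.5, and TIMP4 was higher, at 1.53. MMP3, MMP1 and TIMP4 held at most 49, 105 and 42 raw counts. THBD, at no more than 97 raw counts, was lower too, at -1.80.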

How the data were processed

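Total RNA depleted of ribosomal RNA was sequenced as paired ends from 10 libraries of 10 nM transfections. The authors deposited raw counts per gene, whole numbers that they had not normalised. Their reads were trimmed with Trimmomatic, aligned to hg38 and counted over exons with htseq. The submitters' processing notes name TopHat with Bowtie2, while the methods name TopHat or STAR. The authors' 4 deposited tables of comparisons hold fold changes and p-values in the columns of DESeq2 and were not used.

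Symbols were taken from a reference list of gene names, which held 98.9% of the identifiers. Gene positions, transcript lengths and 3′ UTRs came from GENCODE release 44. Genes were filtered with filterByExpr of edgeR (version 4.0.16), which kept 16905, and tested by its quasi-likelihood F test with TMM scaling in 1 fit of the 5 groups, which left 5 residual degrees of freedom. The Benjamini-Hochberg adjustment ran over all genes tested, and a gene was called at an adjusted p below 0.05 and a log2 fold change beyond 1. SE is that of the log2 fold change, and ± is the SD over n = 2. With 2 libraries a group, no permutation of labels could reach 0.05. P-values weigh a change against the spread between duplicate wells, which the fit pools over the 5 groups, including groups not compared. On counts simulated for siGGCAGU against siNT1 at 48 h, with 16236 genes of which 200 were changed, 200 were recovered with 5 false calls. That recovery checks only that the procedure works on simulated counts. It gives no error rate for the real calls, because duplicate spread differed between groups and DESeq2 did not make some calls at low counts.

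The 5 genes and the related lists were chosen with earlier results of these data known. Named related genes are up to 4 in each list and comparison, those of the largest change among the called genes with at least 20 normalised counts on average, besides PLG, PLGRKT, SERPINF2, LRP1, MMP1, F3 and THBD. ITGAV, VTN, MMP19, F2RL1, SERPINB9, CD177, SERPINB6 and the neighbours of SERPINB2 were named after their values were seen. Some further genes are not reported here. Alternatives were other scalings (DESeq2 size factors, upper quartile, without RN7SL2 and SNORD3A), the DESeq2 test (version 1.42.0), other filters, other call rules, a replicate block, only the libraries compared, and each library left out. Depth was 19781445 to 42428986 counts a library. Named related genes of at most 55 raw counts are given with their highest raw count.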

Additional observations from a re-analysis of the deposited data

Results flagged for a closer look

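Among the 5 genes, PLAU was above siNT1 with siGGGGGC at 24 h and below it at 48 h in every library, so that the effects differed by a log2 fold change of -1.61. PLAUR was 1.15 higher and PLAT was at -1.79 on the log2 scale with siGGGGGC against siGGCAGU at 48 h, because the siRNAs moved each of them to opposite sides of siNT1. No p-value is read for these 3 differences, since the genes were listed with these levels known.

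Among the related genes the effect of siGGGGGC changed between 24 h and 48 h in 11, by the interaction term of edgeR (adjusted p below 0.05 and a difference beyond 1), where 11.2% of all genes were called. The difference was positive, a higher effect at 48 h, for F2RL2 at 2.59 and ITGAV at 1.12. It was negative for KRT8 at -1.91, MMP14 at -1.86, TIMP2 at -1.54, ITGA6 at -1.46, GAS6 at -1.38, LY6E at -1.38, ITGA3 at -1.32, SERPINH1 at -1.30 and SERPINB7 at -1.07. The call of SERPINB7 was lost without siNT1 48 h replicate 2, at -0.97, and that of ITGAV with no filter on low counts, at 0.99. The summed epithelial markers, which include KRT8, moved with time and siRNA as well, and their part in these differences was not tested. Groups of 2 libraries were too small for a check of single outlying libraries.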

How the results depend on the processing

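Under the alternatives 372 values of the 5 genes moved by less than the spread between libraries, 8 moved by more and 0 of the called directions reversed. With no filter on low counts, which moved the median of all genes by -0.121 for siGGGGGC against siNT1 at 48 h, the values there were 0.97 for SERPINE2, -1.09 for PLAU, 0.37 for PLAUR and -0.78 for PLAT, and between the siNT1 times 0.77 for PLAU and -0.13 for PLAUR. That filter setting also moved the median of the difference between 48 h and 24 h by -0.134. Upper-quartile scaling gave -0.26 for PLAUR between the siNT1 times. Leaving out 1 library gave 5.45 to 5.65 for SERPINB2 with siGGCAGU, 2.57 to 2.68 for SERPINE2, -2.06 to -1.71 for PLAU, -0.76 to -0.56 for PLAUR and 1.02 to 1.25 for PLAT, and 1.06 to 1.11 for SERPINE2 with siGGGGGC at 48 h. Of the other ranges of the 5 genes 4 spanned 0, those of PLAT and SERPINE2 with siGGGGGC at 24 h and of SERPINB2 with siGGGGGC at 48 h and between the siNT1 times.

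Counts of related genes depended on the call rule. By adjusted p alone they were 7 higher and 11 lower for siGGGGGC at 24 h, 16 and 24 at 48 h, 24 and 12 for siGGCAGU, 13 higher for siGGGGGC against siGGCAGU, 12 and 3 for the siNT1 times, and 6 and 16 for the difference between 48 h and 24 h. With glmTreat, which tests for a change beyond a log2 fold of 1, they were 0 and 0, 4 and 9, 6 higher, 3 and 13, 0 higher, and 1 and 3 in that order. Genes higher with siGGGGGC at 48 h numbered 5 with no filter and 5 with a mean count of at least 50. With no filter MRC2 at 0.91, ITGAV at 0.93 and LY6K at 0.96 were among those no longer called. For the siNT1 times 2 were higher with upper-quartile scaling and 1 to 6 when a library was left out (2 without siNT1 24 h replicate 1, 1 without siNT1 48 h replicate 1), and for the difference between 48 h and 24 h 2 to 4 (4 without siNT1 24 h replicate 2). The cause was not tested.

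Signs of single related genes were followed only where a gene was called, and always for PLGRKT, LRP1, MMP1, F3 and THBD. Among these LRP1 with siGGGGGC at 48 h ran from -0.71 to 0.09 when a library was left out (0.09 without siNT1 replicate 1). For the difference between 48 h and 24 h, MMP1 ran from -0.68 to 0.02, highest without siGGGGGC 48 h replicate 2. THBD ran there from -0.85 to 0.50 when a library was left out, highest without siGGGGGC 48 h replicate 2. THBD was at 0.01 with upper-quartile scaling and at 0.02 without siGGGGGC 24 h replicate 2. No other gene followed changed sign, and those that did were uncalled there. Replicate numbers were shared by the groups but nothing pairs them, and deviations of same-numbered libraries correlated from -0.3615 to 0.145 over 9979 genes. The replicate block left the counts as they were, for example 12 and 3 for siGGCAGU and 8 and 15 for siGGGGGC at 48 h, and moved no value of the 5 genes by more than 0.01. DESeq2 did not make the calls of VTN, CD177, F2RL1, SERPINB9 and MMP19, which held at most 36 raw counts, in 1 or more comparisons.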

Other observations

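Under the control siRNA alone 4 of the 59 related genes were called between 48 h and 24 h, all of them higher at 48 h, or 6.78% against 1.53% of all genes. Nothing is read from that excess, since the lists were made with earlier results known. F2RL2, the protease-activated receptor PAR3, rose from 50.84 ± 10.8 to 141.1 ± 1.33 normalised counts (log2 fold change 1.46, edgeR adjusted p = 0.000339). MMP14 rose from 2279 ± 67.3 to 4595 ± 298 (1.01, edgeR adjusted p = 1.22e-05), and MRC2 from 87.65 ± 7.51 to 176.7 ± 23.9 (1.01, edgeR adjusted p = 0.00223). IGF2R, a receptor that carries lysosomal enzymes and binds plasminogen and uPAR, had a log2 fold change of 1.38, and its siNT1 libraries at 48 h lay far apart at 2335 ± 1020, so that its call was lost without replicate 1, at 0.86. The calls of MRC2 and MMP14 were lost without siNT1 24 h replicate 1, at 0.92 and 0.98, and without siNT1 48 h replicate 1, at 0.88 and 0.95. F3 had a log2 fold change of -0.53 and THBD one of -0.56 over the same time (edgeR adjusted p = 0.000817 and 0.12), so that tissue factor was lower at 48 h in control cells as well, within the fold limit of the call rule.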
